A study of Mus musculus with 22 samples.

Results

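The genes that carry out the synaptic vesicle cycle and calcium-triggered transmitter release were followed in the cerebellum of 2 mouse lines with an expanded polyglutamine repeat. Members were chosen by gene symbol alone. They were the synaptotagmins (Syt), syntaxins (Stx), syntaxin-binding proteins (Stxbp), Vamp genes, complexins (Cplx), Rab3-prefixed genes, Sv2 genes, synapsins (Syn1 to Syn3), Doc2 and Unc13 genes, and Syp, Synpr, Snap25 and Snap91. This rule found 69 of the 12393 genes on the arrays. They fell into 7 roles, with 17 synaptotagmins and Doc2 proteins, 6 synaptic SNARE proteins, 7 regulators of SNARE assembly and priming, 7 vesicle membrane and coat proteins, 7 Rab3 GTPases and regulators, and 17 syntaxins, Stxbp and Vamp genes of general trafficking. The last 8 members, Rab30 to Rab38, share the first letters of the Rab3 symbol but are other small GTPases. They were kept as a role of their own and are included in all counts of members below.

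Total cerebellar RNA came from female C57BL/6J-backcrossed mice, each measured on 1 Affymetrix array. Sca1 knock-in mice carried 154 glutamine codons in one Atxn1 allele and 2 in the other (Sca1 154Q/2Q), under the endogenous promoter, and formed a group of 3 at 4 weeks and a group of 3 at 9 to 12 weeks. Wild-type mice of that line, which the labels do not name as littermates or otherwise, formed matching groups of 3 and 3. In each older group 1 mouse was 9 weeks old and the others were 12 weeks old. Sca7 knock-in mice carried 266 and 5 glutamine codons in Atxn7 (Sca7 266Q/5Q) and were compared, 5 against 5, with wild-type mice at 5 weeks. The Sca1 line had been backcrossed for 5 to 8 generations and the Sca7 line for 10, and both were taken at an early symptomatic stage.

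Transmitter is released when a docked vesicle fuses with the presynaptic membrane. A SNARE complex formed by a Vamp protein on the vesicle and by a syntaxin and Snap25 on the plasma membrane drives fusion, Unc13 proteins prime it, complexins clamp and promote it, and synaptotagmins or Doc2 proteins couple it to calcium. In the cerebellum these proteins serve the parallel and climbing fibres that end on Purkinje cells, the inhibitory interneurons of the molecular layer, and the Purkinje cell axons that end in the deep nuclei.

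All values below are the probe set values as the authors deposited them, read as log2, so that a difference of 1 is a doubling. A difference subtracts the wild-type mean from the knock-in mean unless another direction is named. Each gene was read from the probe set with the highest mean, and levels were not compared between genes or between the tables of the 2 lines. Genes in the lowest 25% of probe sets were left out, with limits of 2.80 for the Sca1 mice and 2.71 for the Sca7 mice. Of the members, 61 passed this filter in the Sca1 data and 60 in the Sca7 data. The members left out in both tables were Cplx3, Cplx4, Stx19, Syn3, Syt10, Syt5 and Syt6, with Syt17 also left out in the Sca1 table and Syt7 and Syt8 in the Sca7 table. A gene passed the test at a limma adjusted p under 0.05 over all genes of a table (Benjamini-Hochberg, two-sided).

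The median of an array lay between 6.08 and 6.21 for the Sca1 mice and between 6.87 and 6.99 for the Sca7 mice, and no 2 arrays held identical values. The knock-in mouse of 9 weeks (replicate 4) had the lowest median correlation with the other Sca1 arrays, 0.99321. Atxn1 lay under the filter in the Sca1 table at 2.57 to 2.82, so the arrays did not check the Sca1 label. Atxn7 was at 4.63 ± 0.381 in Sca7 knock-in against 4.50 ± 0.679 in wild-type mice (SD, n = 5 each, limma adjusted p = 0.987). The Purkinje cell genes Calb1 and Pcp2 and the granule cell genes Gabra6 and Neurod1, which define the labelled tissue, were present on all arrays, and Calb1 was at 13.74 to 13.96 in the Sca1 knock-in mice.

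At 9 to 12 weeks, Doc2b, a high-affinity calcium sensor of spontaneous and asynchronous release, fell in Sca1 knock-in mice. Its values were 8.98, 8.59 and 8.54 in the knock-in mice and 9.39, 9.60 and 9.50 in the wild-type mice. Every knock-in mouse lay below every wild-type mouse, and the 9-week knock-in mouse lay nearest to the wild types. The means were 8.70 ± 0.245 and 9.49 ± 0.104 (SD, n = 3 each), a 1.73-fold fall of 0.79 on the log2 scale (SE 0.133, 95% interval -1.08 to -0.50, limma adjusted p = 0.0402). Doc2b was the 1 member called, 1.64% of the 61 tested, where 0.148% of all 9452 genes (14 genes) were called. The second Doc2b probe set differed by -0.71 in the same direction. The adjusted p was 0.00686 without knock-in replicate 4. It lay above the threshold without each of the other 11 Sca1 arrays, at 0.130 and 0.149 without knock-in replicates 5 and 6, at 0.0797, 0.191 and 0.125 without wild-type replicates 4, 5 and 6, at 0.0801, 0.0585 and 0.0557 without the 4-week knock-in replicates 1, 2 and 3, and at 0.0765, 0.0600 and 0.0686 without the 4-week wild-type replicates 1, 2 and 3. The difference itself ran from -0.93 to -0.71 over these fits. The adjusted p was also above the threshold with every array shifted to 1 median (0.0590), with quantile normalization (0.0644) and with the spread taken from these 6 arrays alone (0.305).

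**Figure D1:**
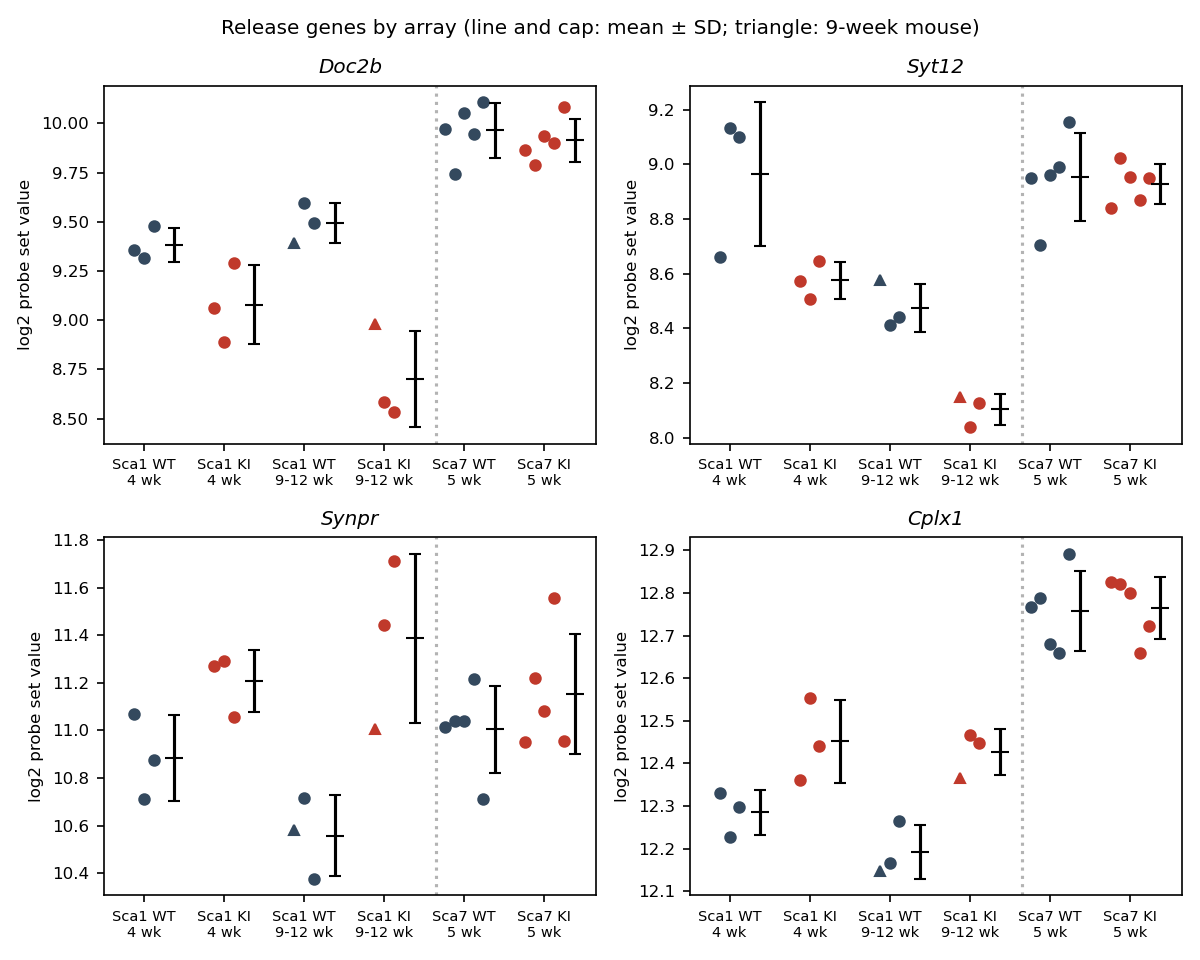
Deposited log2 values of Doc2b, Syt12, Synpr and Cplx1 on every array (points; knock-in red, wild type dark; triangles are the 9-week mice), with the mean and SD of each group beside them; the dotted line separates the tables, whose levels are not comparable. In the Sca1 groups of 9 to 12 weeks all 4 genes separate the genotypes, with Doc2b and Syt12 lower and Synpr and Cplx1 higher in knock-in mice, whereas the Sca7 groups overlap for each of them. Cplx1 was read from different probe sets in the 2 lines.

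Several synaptotagmins lay on the same side as Doc2b without passing. Syt12, a synaptotagmin that does not bind calcium and acts on spontaneous release, was at 8.15, 8.04 and 8.13 in knock-in and 8.58, 8.41 and 8.44 in wild-type mice at 9 to 12 weeks. These groups did not overlap, and the difference was -0.37 (SE 0.122, limma adjusted p = 0.350). Syt9, a fast calcium sensor, was at 9.66, 9.45 and 9.40 in knock-in and 9.94, 9.65 and 9.86 in wild-type mice, with 1 knock-in value inside the wild-type range (-0.31, adjusted p = 0.498). Syt1 and Syt2, the main fast sensors of forebrain and hindbrain synapses, differed by -0.27 (95% interval -0.63 to 0.09) and -0.09 (-0.31 to 0.13). A second Syt1 probe set was at -0.63. Of the 13 members of this family tested, 7 lay above 0 and 6 below, with a median of 0.02.

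The vesicle membrane protein with the highest positive difference was Synpr, or synaptoporin, a relative of synaptophysin. It was at 11.01, 11.44 and 11.71 in knock-in mice and 10.58, 10.72 and 10.38 in wild-type mice of 9 to 12 weeks. The genotypes did not overlap, and the 9-week knock-in mouse again lay nearest to the wild types. The difference of 0.83 (SE 0.160, 95% interval 0.48 to 1.18, 1.78-fold) missed the threshold (limma adjusted p = 0.0723). It passed without knock-in replicate 4 (1.02, adjusted p = 0.00741) and missed without each other Sca1 array, up to 0.279. Synaptophysin itself (Syp) differed by 0.12 and the synapsins, which tether vesicles in the reserve pool, by 0.08 (Syn1) and 0.01 (Syn2), all with overlapping groups. In this role 5 of 6 members lay above 0, with a median of 0.07.

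Among the regulators of SNARE assembly, Cplx1, the main complexin of the hindbrain, was slightly higher at both ages without passing. At 9 to 12 weeks it was at 12.37, 12.47 and 12.45 in knock-in and 12.15, 12.17 and 12.26 in wild-type mice, a difference of 0.23 (SE 0.0697, adjusted p = 0.293) with groups that did not overlap. Its other probe sets differed by 0.17 and 0.18. Cplx2 and Unc13a, a complexin and the main priming factor, differed by -0.37 each, and their 95% intervals, -0.91 to 0.17 and -0.86 to 0.11, were wide. Both values depended on single arrays. Unc13a was at -0.11 without wild-type replicate 6. Cplx2 was at -0.18 and -0.24 without knock-in replicates 6 and 4, at -0.70 without knock-in replicate 5, and at -0.57 and -0.25 without wild-type replicates 4 and 5. Cplx2 and Rab3c (0.00333) lie on chromosome 13, as Atxn1 does in the RefSeq annotation.

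The synaptic SNARE proteins lay between -0.25 and 0.10 at this age. Snap25 was at 14.21, 14.23 and 14.21 in knock-in and 14.20, 14.19 and 14.22 in wild-type mice of 9 to 12 weeks, a difference of 0.01 (95% interval -0.14 to 0.17). Vamp2, the principal vesicle SNARE, differed by 0.03, Stx1a by 0.10 and Vamp1, the vesicle SNARE of fast hindbrain synapses, by -0.17. The second Vamp1 probe set differed by -0.66. None of the 6 SNARE members had an unadjusted p under 0.05. Of the general trafficking genes, the plasma membrane syntaxin Stx4a was lower (8.64, 8.34 and 8.30 against 8.69, 8.83 and 9.10, difference -0.45, adjusted p = 0.261), and the endosomal syntaxins Stx7 (0.21) and Stx12 (0.14) were higher, all with groups that did not overlap and none passing. Over all roles, 9 of 61 members had groups that did not overlap, 14.8%, where 12.1% of all genes did, and 7 members, 11.5%, had an unadjusted p under 0.05, where 9.19% of all genes did. These 7 were 3 higher (4.92%, all genes 2.59%) and 4 lower (6.56%, all genes 6.6%). Of the members 37 lay above 0, 60.7%, where 48.1% of all genes did. The median difference was 0.03 over the members and -0.00733 over all genes. The 95% interval lay within 0.5 of 0 for 40 of the 61 members.

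**Figure D2:**
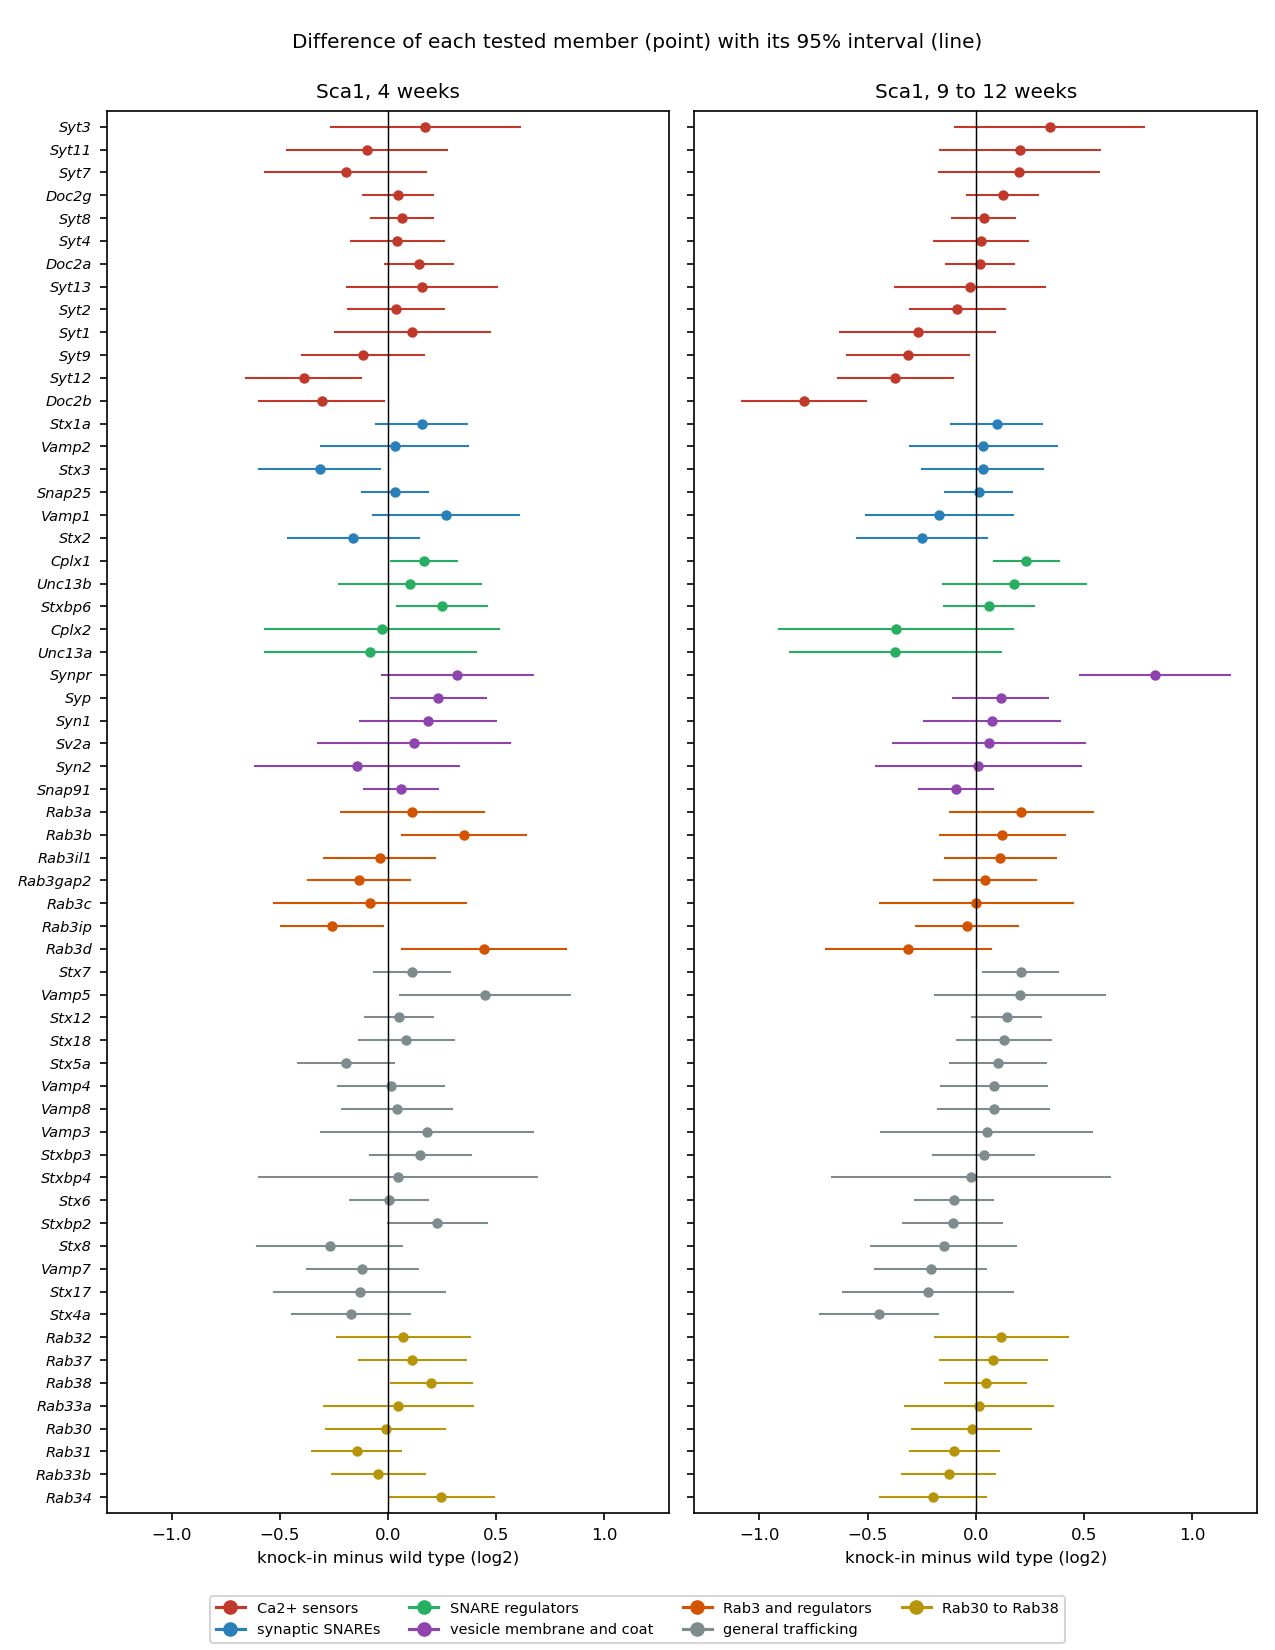
Knock-in minus wild type on the log2 scale for each of the 61 members tested in the Sca1 table, at 4 weeks (left) and at 9 to 12 weeks (right); points are differences, lines 95% intervals of single genes without correction for many tests, colours the roles. At 9 to 12 weeks Doc2b (-0.79) and Synpr (0.83) lie outside the other members, and at 4 weeks all points lie between -0.39 and 0.45.

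The promoters of 3 members are shown. Synpr and Cplx1, which did not pass, were the higher members with the smallest p at 9 to 12 weeks. Rab3d was the member called for the age step in knock-in mice, below. No promoter entry was found for Syt12 or for Doc2b, the member called at 9 to 12 weeks. Each sequence shown is the stretch of 250 bases before a RefSeq start (GRCm38.p6), written 5′ to 3′ on the gene's strand. Capitals mark GGGCGG, the GC box bound by Sp1 factors, read on either strand. The Synpr sequence is chr14:13284530-13284779 (plus strand, the first of 2 listed starts), Cplx1 is chr5:108550028-108550277 (minus strand) and Rab3d is chr9:21918184-21918433 (minus strand).
Synpr: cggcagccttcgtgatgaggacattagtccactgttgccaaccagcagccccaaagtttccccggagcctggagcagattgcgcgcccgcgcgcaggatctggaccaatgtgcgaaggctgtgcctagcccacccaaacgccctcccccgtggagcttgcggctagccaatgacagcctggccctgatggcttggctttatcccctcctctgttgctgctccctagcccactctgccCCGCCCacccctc
Cplx1: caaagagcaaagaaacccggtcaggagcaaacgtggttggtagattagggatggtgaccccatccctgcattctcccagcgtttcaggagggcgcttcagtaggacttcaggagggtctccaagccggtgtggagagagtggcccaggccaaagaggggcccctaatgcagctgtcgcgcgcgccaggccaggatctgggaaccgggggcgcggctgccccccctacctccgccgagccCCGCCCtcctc
Rab3d: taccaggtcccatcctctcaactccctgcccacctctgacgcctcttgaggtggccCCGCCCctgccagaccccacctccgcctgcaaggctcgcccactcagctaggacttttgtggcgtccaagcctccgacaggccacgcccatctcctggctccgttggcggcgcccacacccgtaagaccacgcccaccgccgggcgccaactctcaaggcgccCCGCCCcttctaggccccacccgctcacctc

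The GC content of these stretches was 64.0% for Synpr, 64.8% for Cplx1 and 69.2% for Rab3d. The GC box occurred once each in Synpr and Cplx1 and 2 times in Rab3d. Of 70 promoters listed for 52 members, 42 held at least 1 GC box on either strand, against 32.7% of the 32851 promoters of this length in the table, which also cover non-coding genes. The other motifs searched on both strands were TGACGTCA, the cAMP response element (2.86% of member promoters, 1.55% of all), CAGCTG, an E-box (21.4% and 13.0%), and TGAATGAA and TGAATGGA, the octamers bound by Capicua, a repressor partner of ataxin-1 (0% and 1.08%, and 1.43% and 1.01%). Among the sequences shown, CAGCTG occurred once, in Cplx1, and the last 2 octamers did not occur. Such matches describe the letters only.

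At 4 weeks no member was called, as was the case for all genes (0%, smallest limma adjusted p 0.640, 543 genes with an unadjusted p under 0.05). Unadjusted p under 0.05 was found in 12 of 61 members, 19.7%, where 5.74% of all genes had it, and the groups did not overlap for 18 members, 29.5%, where they did not for 13.5% of all genes. The 12 were 8 higher (13.1%, all genes 2.68%) and 4 lower (6.56%, all genes 3.07%), and 39 members, 63.9%, lay above 0 against 50.4% of all genes. Syt12 had the smallest p. It was at 8.57, 8.51 and 8.65 in knock-in and 8.66, 9.13 and 9.10 in wild-type mice, a difference of -0.39 (SE 0.122, adjusted p = 0.742), and wild-type replicate 1 lay just above the knock-in values. Doc2b was at 9.06, 8.89 and 9.29 against 9.36, 9.31 and 9.48, a difference of -0.31 whose groups did not overlap. Its second probe set differed by -0.13.

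The other members with low p at 4 weeks were of mixed roles. Stx3, a syntaxin of ribbon synapses and epithelia, differed by -0.32, but its other probe sets by 0.00733 and 0.05. Rab3ip, an exchange factor for Rab8, differed by -0.26. On the high side were the vesicle GTPases Rab3b (0.35) and Rab3d (0.44), the SNARE inhibitor Stxbp6 (0.25) and Vamp5 (0.45), a Vamp protein best known from muscle. The other Rab3d probe sets differed by 0.27, -0.52 and 0.23, and the second Vamp5 probe set by -0.025. Rab3b, Rab3d, Stxbp6 and Vamp5 were dim. Their group means ran from 2.92 to 5.64, with the filter at 2.80. The median of the probe sets under the filter was 2.26, 2.13 and 2.28 on the 4-week knock-in arrays and 2.13, 2.17 and 2.11 on the wild-type arrays, and the part of this offset in the higher values of dim members was not tested. Synaptophysin was bright and higher by 0.23, at 13.19, 12.97 and 12.91 against 12.72, 12.79 and 12.87, with groups that did not overlap. Rab34 (0.25) and Rab38 (0.20), of the Rab30 to Rab38 role, also counted among the higher members with an unadjusted p under 0.05. Rab38 was dim too, with means of 3.07 in knock-in and 2.87 in wild-type mice. The second Rab34 probe set differed by 0.055.

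Between the 2 Sca1 ages, which share no arrays, 43 of 61 members (70.5%) kept the sign of the genotype difference, and 67.8% of all genes did. Doc2b, Syt12 and Cplx1 had an unadjusted p under 0.05 at both ages, 25.0% of the 12 such members at 4 weeks and 42.9% of the 7 at 9 to 12 weeks. Over all genes 149 did, 27.4% of the 543 at 4 weeks and 17.1% of the 869 at 9 to 12 weeks. Both ages took the spread of a gene from the same fit of all Sca1 arrays, so the p values of the 2 ages are not independent. Averaged over both ages, Doc2b was again the 1 member called (-0.55, SE 0.0939, limma adjusted p = 0.0321), with 0.349% of all genes called. An unadjusted p under 0.05 was found in 11 members, 18.0%, where 12.9% of all genes had it, and 38 members lay above 0, 62.3% against 48.3% of all genes. Synpr (0.57, adjusted p = 0.0609), Syt12 (-0.38, 0.101), Cplx1 (0.20, 0.118) and Stx4a (-0.31, 0.185) missed the threshold. Doc2b lost this call without 4-week knock-in replicates 1 and 2 (0.0903 and 0.0612), older knock-in replicates 5 and 6 (0.0652 and 0.0797), 4-week wild-type replicates 1, 2 and 3 (0.0712, 0.0709 and 0.0992) and older wild-type replicates 5 and 6 (0.112 and 0.0785).

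The genotype difference at 9 to 12 weeks minus that at 4 weeks was tested directly, and neither a member nor any other gene passed in limma (0%, with 211 genes, 2.23%, and 5 members, 8.20%, at an unadjusted p under 0.05). Of the members 25 lay above 0, 41.0% against 42.3% of all genes. The 5 members were Rab3d (-0.75), Doc2b (-0.49), Rab34 (-0.44), Stxbp2 (-0.33) and Synpr (0.51), each with an adjusted p of 0.999. A change of the genotype difference with age was therefore not shown for Doc2b or Synpr.

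**Figure D3:**
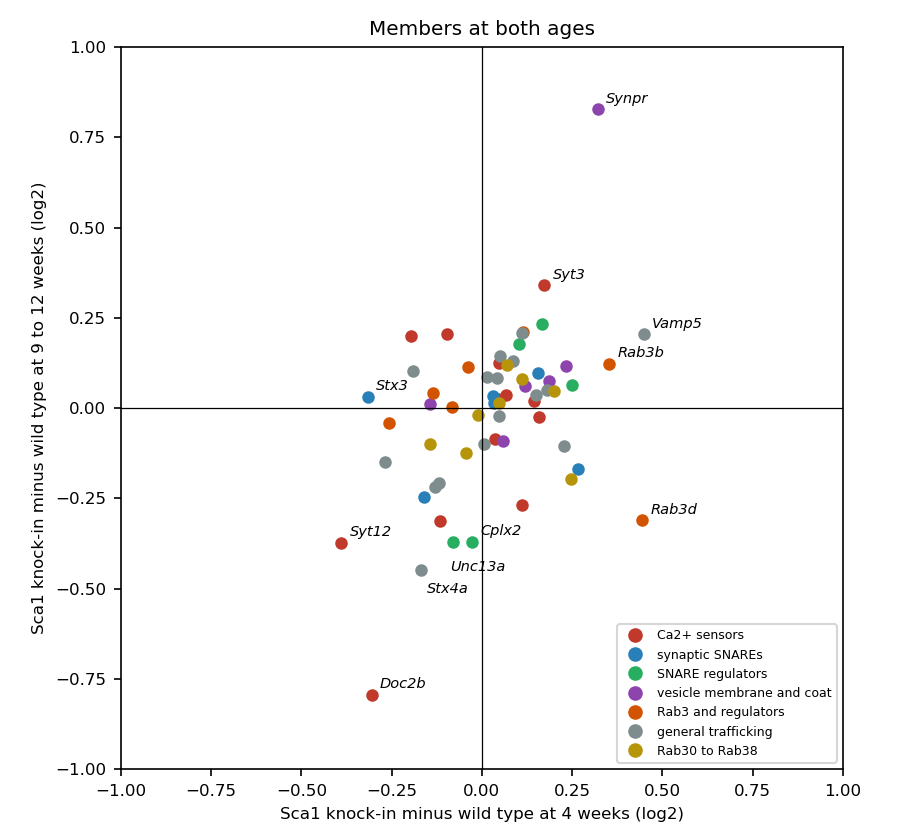
Knock-in minus wild type (log2) of each tested member at 4 weeks (horizontal) and at 9 to 12 weeks (vertical), coloured by role, with labels on the members farthest from 0. Doc2b and Syt12 lie low at both ages and Synpr high at both. Rab3d, on the probe set used, is high at 4 weeks and low at 9 to 12 weeks. Its other probe sets had mixed signs, at 0.27, -0.52 and 0.23 at 4 weeks and -0.004, -0.625 and 0.14 at 9 to 12 weeks.

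Cell-type markers moved in the same Sca1 arrays. Of 21 Purkinje cell markers tested, 19 lay below 0 at 9 to 12 weeks, and Cck and Rgs8 fell (adjusted p 0.0399 and 0.0328). Their mean per array was 10.84 to 10.86 in knock-in and 11.07 to 11.20 in wild-type mice at 9 to 12 weeks, and 10.85 to 10.99 against 11.04 to 11.09 at 4 weeks. The granule cell markers ran from 11.34 to 11.51 in knock-in and 11.38 to 11.44 in wild-type mice at 9 to 12 weeks. Interneuron markers ran from 7.61 to 7.76 and from 7.73 to 7.99. Markers of other cells also separated the genotypes at this age. Of 13 myelin markers 12 lay below 0 with none called, and their mean was 9.75 to 9.87 in knock-in and 9.97 to 10.11 in wild-type mice. The 10 microglia markers, 7 of them below 0 and none called, were at 5.40 to 5.52 against 5.62 to 5.69. Of the list for midbrain, hindbrain and deep nuclei only 3 genes passed the filter, with a mean of 6.65 to 6.74 against 7.12 to 7.22. Of these, 1 lay above 0 and 2 below, with a median of -0.12. Th, which makes the precursor of dopamine, fell by 1.37 (limma adjusted p = 0.00228, the smallest of all genes). The separation of this mean therefore rested mainly on Th and not on the list as a whole. The Bergmann glia and astrocyte markers, 10 of 14 below 0, overlapped (10.68 to 10.74 against 10.73 to 10.88). The part of these marker shifts in the members' values was not tested, and in bulk tissue fewer cells of a type and less RNA per cell cannot be told apart. Choroid plexus markers ran from 5.20 to 6.36 in knock-in and 6.02 to 6.34 in wild-type mice at 4 weeks. All 9 lay below 0 at that age, with a median of -0.41 and none called. Of 15 granule cell markers 12 lay below 0 at 4 weeks, none called, at 11.48 to 11.54 against 11.54 to 11.66. Of the Purkinje cell markers 17 of 21 lay below 0 at 4 weeks, of the myelin markers 5 of 13 and of the interneuron markers 4 of 10. The part of these shifts in the members' 4-week values was not tested.

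Other genes of the vesicle cycle, such as active zone scaffolds, presynaptic calcium channels, endocytic proteins and transmitter transporters, were followed from a list of 77, of which 56 were measured. None was called in any of the 7 contrasts. At 9 to 12 weeks 25 lay above 0 and 31 below, with a median of -0.01, and 1 had an unadjusted p under 0.05. Of all genes 48.1% lay above 0 and 9.19% had such a p. At 4 weeks 36 lay above 0 and 20 below, with 2 at an unadjusted p under 0.05, where 50.4% of all genes lay above 0 and 5.74% had such a p.

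In wild-type mice, age was compared within the Sca1 table. From 4 to 9 to 12 weeks, 0 of 61 members were called in limma, where 41 of 9452 genes (0.434%) were, and 5 members (8.20%) had an unadjusted p under 0.05, where 12.7% of all genes did. The ages did not overlap for 11 members, 18.0%, where 21.0% of all genes did not. Of these 8 were lower in the older mice (13.1%, all genes 6.54%) and 3 higher (4.92%, all genes 14.4%), and 28 members lay above 0, 45.9%, where 63.0% of all genes did. Syt12 was lower in the older mice (8.58, 8.41 and 8.44 against 8.66, 9.13 and 9.10; difference -0.49, adjusted p = 0.118). Vamp7, a SNARE of late endosomes and lysosomes, was higher (9.36, 9.45 and 9.41 against 8.85, 9.00 and 9.12; 0.42, adjusted p = 0.166), and so was the endosomal Vamp8 (0.33, adjusted p = 0.254). The second Vamp7 probe set differed by 0.11. Syn2 (-0.58, adjusted p = 0.292) and the Golgi GTPase Rab33a (-0.46, adjusted p = 0.244) were lower. Stx4a (0.20) and Stx12 (0.11) were higher and Synpr (-0.33) lower, with limma adjusted p of 0.56, 0.579 and 0.429. Older wild-type replicate 4, the 9-week mouse, had the lowest Syn2 value, 10.13, against 10.83 and 11.02. All 6 vesicle membrane and coat members lay below 0, with a median of -0.24.

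In Sca1 knock-in mice the same age step gave 1 called member, 1.64%, where 110 genes (1.16%) were called. Rab3d, a Rab3 GTPase best known from secretory granules, fell from 5.48, 5.57 and 5.87 at 4 weeks to 4.59, 5.09 and 4.45 at 9 to 12 weeks. The ages did not overlap, and the fall was 0.93 (SE 0.175, limma adjusted p = 0.0281). In wild-type mice Rab3d differed by -0.17 over the same ages. Its 3 other probe sets differed by -0.26, -0.73 and -0.12 in knock-in mice and by 0.01, -0.63 and -0.03 in wild-type mice, so that one of them was nearly as much lower with age in wild-type as in knock-in mice. The call was lost without 4-week knock-in replicates 2 and 3 (adjusted p 0.0566 and 0.131), older knock-in replicates 4 and 6 (0.0567 and 0.115) and older wild-type replicate 5 (0.0512).

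Other members differed with age in knock-in mice without passing. An unadjusted p under 0.05 was found in 17 of 61 (27.9%), where 15.4% of all genes had it, with 10 lower (16.4%, all genes 6.67%) and 7 higher (11.5%, all genes 8.69%). The ages did not overlap for 17 members, 27.9%, where they did not for 17.3% of all genes. Those lower included, from the synaptotagmin and Doc2 role, Syt12 (-0.47, adjusted p = 0.0915), Syt1 (-0.52, 0.156), Doc2b (-0.38, 0.198), Syt9 (-0.31) and Syt4 (-0.22), and the vesicle proteins Syp (-0.23) and Snap91 (-0.19). Those higher were 4 general trafficking genes, Vamp8 (0.37), Vamp7 (0.33), Stx5a (0.26) and Stx12 (0.20), together with Stx3 (0.43) of the SNARE role and Rab3ip (0.32) and Rab3gap2 (0.30) of the Rab3 role. The second Vamp7 probe set differed by -0.07 and the other Stx3 probe sets by -0.09 and 0.01. Of the synaptotagmin and Doc2 role 11 of 13 lay below 0. Over all members 43 of 61 lay below 0, with a median of -0.07, while 54.1% of all genes lay above 0. Whether the age step differed between genotypes is the test given above, which no member passed. Beside these values, all 13 myelin markers were lower in the older mice of both genotypes, with 3 called in wild-type and 8 in knock-in mice. All 9 choroid plexus markers were higher in the older mice of both genotypes, with medians of 0.64 in wild-type and 0.69 in knock-in mice, and 1 of them, Calml4, was called, in knock-in mice. Fabp7, a marker of Bergmann glia, fell with age by 1.73 in wild-type and 1.28 in knock-in mice (adjusted p 0.0202 and 0.0388). The part of these shifts in the members' values was not tested.

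**Figure D4:**
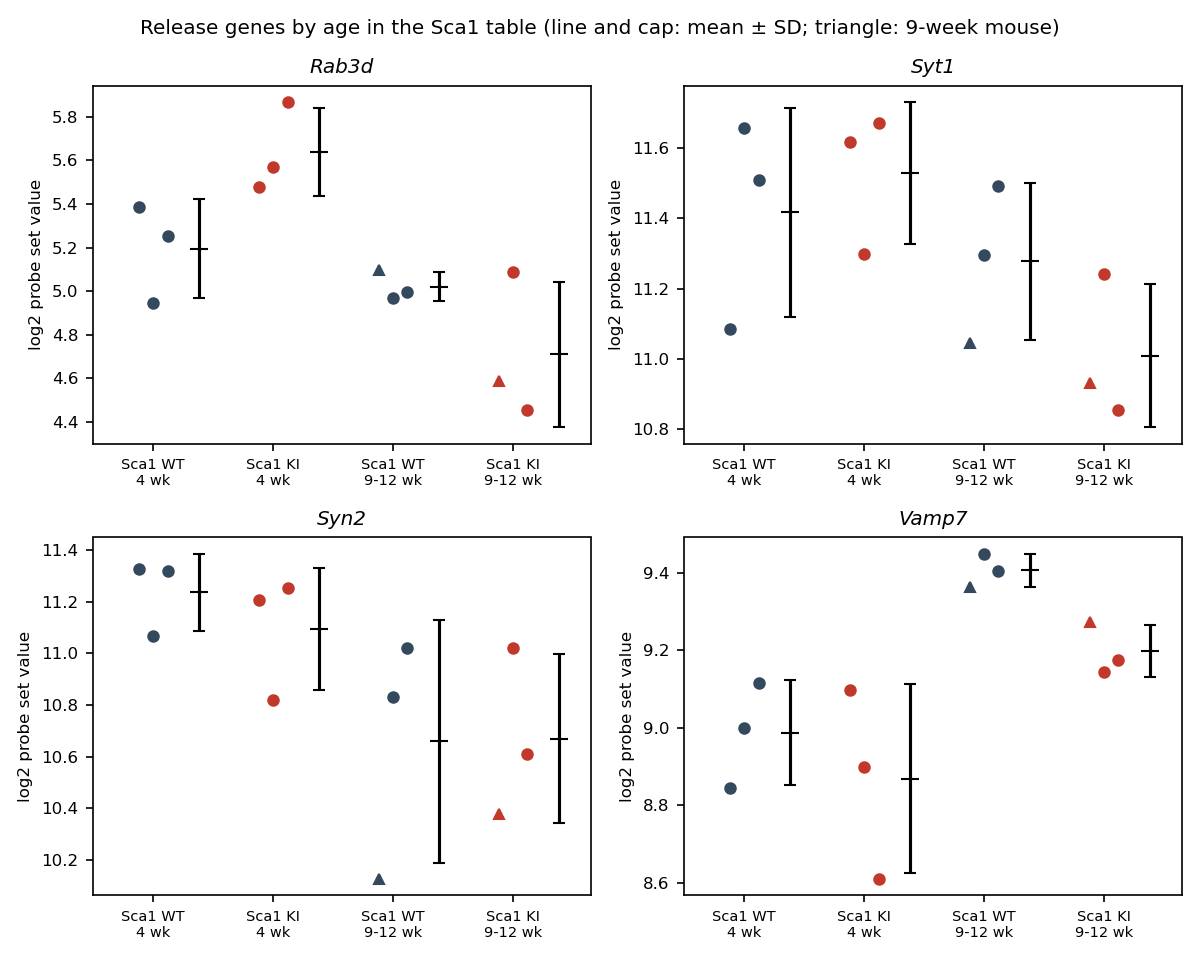
Deposited log2 values of Rab3d, Syt1, Syn2 and Vamp7 on each Sca1 array (points; knock-in red, wild type dark; triangles are the 9-week mice), with mean and SD of each group. Rab3d separates the ages in knock-in mice and overlaps in wild-type mice. Vamp7, on the probe set shown, is higher at 9 to 12 weeks in both genotypes. Its second probe set differed with age by 0.11 in wild-type and -0.07 in knock-in mice.

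In the Sca7 line at 5 weeks the release genes showed no called difference. Of 60 members 0 were called in limma, as of all 9488 genes (0%, with 350 genes, 3.69%, and 3 members, 5.00%, at an unadjusted p under 0.05). Of the members 31 lay above 0, 51.7% against 52.9% of all genes. Stx18, a syntaxin of the endoplasmic reticulum, was the 1 member whose groups did not overlap (1.67%, against 0.548% of all genes). It was at 9.71, 9.72, 9.71, 9.70 and 9.69 in knock-in and 9.57, 9.60, 9.66, 9.51 and 9.69 in wild-type mice, a difference of 0.10 (SE 0.0405, adjusted p = 0.986), and it was -0.00736 over the mean of its probe sets. Rab3a, the main Rab3 GTPase of synaptic vesicles, was at 12.58, 12.63, 12.60, 12.43 and 12.47 against 12.42, 12.41, 12.47, 12.42 and 12.50, a difference of 0.10 with overlapping groups. Vamp3, a SNARE of recycling endosomes, also differed by 0.10. The lower members with the smallest p were Rab34 (-0.14), Vamp5 (-0.13), Rab3gap2 (-0.15) and Syt2 (-0.08). Each had a limma adjusted p of 0.986, and none had an unadjusted p under 0.05. The second Rab34 probe set differed by 0.03 and the second Vamp5 probe set by -0.0072.

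Of the genes that stood out in the Sca1 line, Doc2b, Syt12 and Cplx1 lay near 0 here. Synpr had the highest difference of its role, on the same side as in the Sca1 line, with overlapping groups. Doc2b was at 9.87, 9.79, 9.94, 9.90 and 10.09 in Sca7 knock-in and 9.97, 9.74, 10.06, 9.95 and 10.11 in wild-type mice, a difference of -0.05 (95% interval -0.21 to 0.11). Syt12 differed by -0.03 (-0.19 to 0.14), Cplx1 by 0.00840 (-0.10 to 0.12) and Synpr by 0.15 (-0.11 to 0.41). Cplx1 was read here from another probe set than in the Sca1 line. The Cplx1 probe set used in the Sca1 line differed by 0.07 in the Sca7 mice. Synpr lies on chromosome 14, as Atxn7 does in the RefSeq annotation. The differences between the lines were not tested, since each line has its own table and ages. Unc13b had the largest positive difference, 0.28 (6.50 ± 0.260 against 6.22 ± 0.273, SD, n = 5 each, adjusted p = 0.986). The 95% interval lay within 0.5 of 0 for 59 of the 60 members, Unc13b being the exception, and the median size of the differences was 0.05 for the members and 0.05 for all genes.

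**Figure D5:**
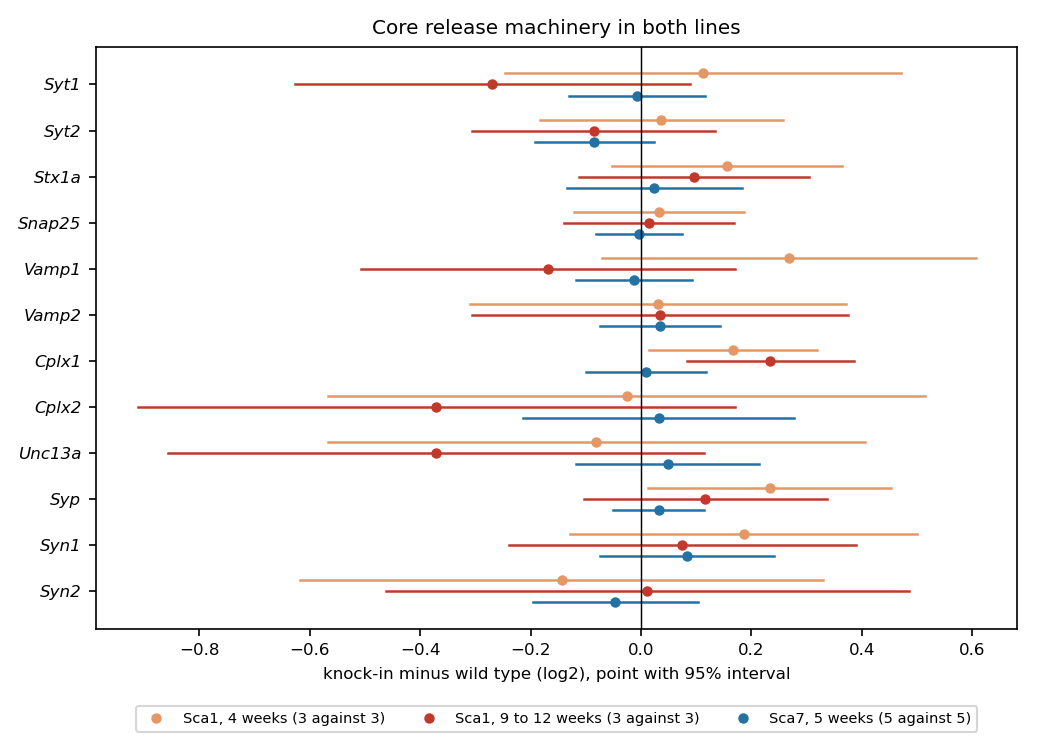
Knock-in minus wild type (log2) of 12 core release genes, with 95% intervals, in the Sca1 line at 4 weeks and at 9 to 12 weeks (3 against 3) and in the Sca7 line at 5 weeks (5 against 5). The Sca7 intervals all include 0, and the Sca1 intervals exclude 0 for Cplx1 at both ages and for Syp at 4 weeks. Cplx1 and Stx1a were read from different probe sets in the 2 lines.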

How the data were processed

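Total cerebellar RNA of 22 mice was hybridised to Affymetrix arrays, 12 from Sca1 mice and 10 from Sca7 mice, each line with its own table. The authors deposited probe set values that look like log2 values. GCOS 1.1 is named in the submitters' processing notes, and no source used here states the background correction, normalization, summary method or log base. The values were used as they stand, and each table was fitted by itself.

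Control probe sets (64 of 22690) and probe sets with several symbols (691) or none (1555) were left out. The 20380 with 1 symbol gave 12393 genes, each read from its probe set with the highest mean. After the filter on the lowest 25%, 9452 Sca1 genes and 9488 Sca7 genes were tested with limma 3.58.1 in R 4.3.3 (lmFit and eBayes with an intensity trend, two-sided, Benjamini-Hochberg over all genes of a table). The 4 Sca1 groups shared 1 fit, with 8 residual and 4.23 prior degrees of freedom, and the Sca7 fit had 8 and 3.47. The labels call the mice biological replicates, and their number limits the precision. The code was tested on simulated data.

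Named were members that passed, for each sign the 4 with the lowest p in the genotype contrasts and the wild-type age contrast, and a core set of the release machinery. Stxbp2, Rab34, Rab38, Rab3c and the other members of the knock-in age step were named after their values were seen. The members, lists and tests were chosen with earlier results of these data known. Alternatives were other filters, normalizations, probe set rules, priors, weights, fits with fewer groups, a replicate block, and leaving out arrays. Same-numbered mice did not all deviate together: correlations were 0.413 and 0.458 for the older Sca1 mice numbered 4 and 5 but -0.21 to 0.04 for the other 4 Sca1 numbers, and -0.13 to 0.11 for Sca7. The numbers were not used as pairs in the main fit, although the older Sca1 mice numbered 4 and 5 did deviate together. Number 4 was the 9-week mouse in both genotypes. With the replicate block Doc2b had a limma adjusted p of 0.0647 at 9 to 12 weeks, above the threshold. Promoters came from RefSeq (GRCm38.p6), where 52 of the 69 members had an entry.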

Additional observations from a re-analysis of the deposited data

Results flagged for a closer look

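In the groups of 5 Sca7 mice, a value was singled out where its gap to the nearest other mouse took up most of the range of the group (Dixon's test at the 95% level). Of 38 groups tested for 19 named members, 3 held such a value, and chance gives about 1 in 20. Unc13a, the priming factor, was at 9.71 in knock-in replicate 1, where the other knock-in mice lay between 9.40 and 9.43, and at 9.21 in wild-type replicate 4, where the others lay between 9.43 and 9.52. Stx1a, a plasma membrane SNARE, was at 4.72 in knock-in replicate 4, where the others lay between 4.37 and 4.47.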

How the results depend on the processing

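The number of members called at 9 to 12 weeks (1, Doc2b) was 0 with all probe sets kept, with arrays shifted to 1 median, with the mean of a gene's probe sets, with only the contrast's groups, with quantile normalization and with the replicate block, 3 without both 9-week mice (Doc2b, Stx4a and Synpr) and 4 with array weights (Cplx1, Doc2b, Stx4a and Synpr). It ran from 0 to 2 when arrays were left out in turn. For the mean of both ages (1) it was 0 with the mean of probe sets and with the replicate block, 2 with the lowest 50% left out, 3 without the 9-week mice and 5 with array weights, and ran from 0 to 3 with arrays left out. For the knock-in age step (1) it was 0 with the lowest 50% left out, the mean of probe sets, only the contrast's groups or no 9-week mice and 6 with array weights, and ran from 0 to 2. For the wild-type age step (0) it was 1 with array weights (Syt12). At 4 weeks, for the difference between ages and in the Sca7 line it stayed at 0. The genes called overall moved with the same choices. At 9 to 12 weeks 14 became 258 with array weights, 75 without the 9-week mice, 6 with the block, 5 with quantile normalization or a shift to 1 median, 0 with only the contrast's groups and 2 to 151 with arrays left out in turn. For the mean of both ages 33 became 375, 152 and 20 with array weights, without the 9-week mice and with the block, and 5 to 198 with arrays left out. For the age steps, 41 in wild-type mice became 209 with array weights and 0 to 65 with arrays left out, and 110 in knock-in mice became 697 with array weights, 21 with only the contrast's groups and 23 to 117 with arrays left out. With the block Doc2b had an adjusted p of 0.0647 at 9 to 12 weeks and 0.0541 for the mean of both ages. The block could not be fitted for the age steps, whose groups share no numbers.

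Of 68 named values, 20 changed sign under at least 1 alternative, in 53 of 1468 cases. Stx3 at 4 weeks was at 0.00733 with only the contrast's groups and without the 9-week mice, where another probe set had the highest mean. The others were small. At 9 to 12 weeks, Syn2 was at -0.0146 with array weights and -0.108 without the 9-week mice, and Vamp2 at -0.0693 with the mean of probe sets. At 4 weeks Cplx2 was at 0.00489 with quantile normalization and Syt2 at -0.00411 with the mean of probe sets. In the Sca7 line Cplx1 was at -0.0153 with quantile normalization and Stx18 at -0.00736 with the mean of probe sets. There, array weights gave 0.00195 for Snap25 and 0.0203 for Syt1, and a shift to 1 median gave 0.0289 for Snap25, 0.0243 for Syt1 and 0.0201 for Vamp1. The causes of these changes were not tested. With arrays left out in turn, the ranges that crossed 0 were, at 9 to 12 weeks, -0.105 to 0.246 for Syn1, -0.254 to 0.192 for Syn2, -0.153 to 0.0205 for Syt2 and -0.114 to 0.282 for Vamp2. At 4 weeks they were -0.132 to 0.0963 for Cplx2, -0.0358 to 0.0892 for Snap25, -0.054 to 0.232 for Syt1, -0.009 to 0.085 for Syt2, -0.263 to 0.065 for Unc13a and -0.0075 to 0.0638 for Vamp2. In the Sca7 line they were -0.0162 to 0.0421 for Cplx1, -0.0412 to 0.102 for Cplx2, -0.0238 to 0.0107 for Snap25, -0.0338 to 0.0547 for Stx1a, -0.0968 to 0.0029 for Syn2, -0.0361 to 0.0332 for Syt1, -0.0102 to 0.0726 for Unc13a and -0.0464 to 0.0231 for Vamp1.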

Other observations

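Among the other vesicle cycle genes with age, 16 of 56 lay above 0 and 40 below in wild-type mice and 12 above and 44 below in knock-in mice. Of all genes, 63.0% lay above 0 in wild-type and 54.1% in knock-in mice. The genes named here were chosen after their values were seen. Ppfia4, an active zone scaffold of the liprin family, was lower in the older mice of both genotypes without passing (-0.61, limma adjusted p = 0.0995, in wild-type mice and -0.60, 0.0616, in knock-in mice). In knock-in mice Dnm1, the dynamin of vesicle endocytosis, differed by -0.32 (adjusted p = 0.0634) and the active zone scaffold Erc1 by -0.51 (0.107).

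In the Sca7 line 35 of 55 such genes lay above 0, where 52.9% of all genes did. Gad2, an enzyme of GABA synthesis, differed by -0.32 (SE 0.0810, adjusted p = 0.986) and Cadps2, a priming factor of dense-core vesicles, by 0.13 (adjusted p = 0.986). Of 8 interneuron markers tested in that line, 1 of them Gad2 itself, 7 lay below 0, with a median of -0.05. Their mean per array was 9.26 to 9.38 in knock-in and 9.38 to 9.44 in wild-type mice. All 9 choroid plexus markers lay above 0 in that line, with a median of 0.64 and none called. Their mean per array was 7.49 to 8.02 in knock-in and 5.51 to 7.91 in wild-type mice. The part of these marker shifts in the members' values was not tested.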
